A study of Drosophila melanogaster with 4 samples.

Results

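Described here are the regions enriched for dimethylation of histone H3 at lysine 79 (H3K79me2) in the heterochromatic and pericentric sequence of the fly genome: those of the combined list, the replicate set, on chromosome 4, on the 6 Het sequences, on U, or in the last 2 Mb of the assembled arms X, 2L and 3L. In FlyBase release 5, a Het sequence joins scaffolds placed in the heterochromatin of 1 chromosome or arm, and U collects scaffolds that have no place. The last 2 Mb of X, 2L and 3L are the ends nearest the centromere. Members were chosen by position alone. They number 281 of 5314 regions (5.29%), on 19.1% of the 139.7 Mb of sequence considered. Chromosome 4 held 64 of them, the Het sequences 52, U 38 and the 3 arm ends 127.

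Most fly heterochromatin lies around the centromeres and on the Y chromosome and the small chromosome 4. It is poor in genes, rich in repeats, and packed with histone H3 methylated at lysine 9 and the protein HP1a. Genes embedded in it are nonetheless transcribed, and chromosome 4 carries a normal density of active genes within HP1a-bound chromatin. H3K79me2 is placed by the methyltransferase grappa, the fly Dot1, and is found over transcribed genes.

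With an Abcam antibody against it, H3K79me2 was mapped by chromatin immunoprecipitation and sequencing (ChIP-seq) in whole Drosophila melanogaster embryos of Oregon-R, a wild-type strain, 14 to 16 h old per the labels. The study had 2 ChIP samples and 2 input samples, the inputs being chromatin not taken through the antibody step. Per the labels the numbers cross: ChIP replicate 1 was set against the input numbered 2, and ChIP replicate 2 against the input numbered 1. Enriched regions were listed for each ChIP sample and once more for both together (the replicate set). Whole embryos mix all tissues. Nothing in the labels says that the replicates were collected apart, and their spread may be technical. Sequencing depth is unknown. The replicate lists held 252 regions of 5090 (replicate 1) and 242 of 5061 (replicate 2) in the same sequences. The rest of the large arms, with 5033 regions of the replicate set, served for comparison, and it includes the centromere ends of 2R and 3R, which the choice by position left out. With 2 libraries of 1 group and no values from the inputs, no test between groups exists, and an exact sign-flip test over 2 samples cannot go below 0.5 (two-sided). Differences are therefore given per replicate and set against the spread between replicates.

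H3K79me2 was sparse in most of this sequence, with chromosome 4 as the exception. Enriched regions covered 2.78% of the 26.7 Mb in replicate 1 and 2.78% in replicate 2, against 14.0% and 16.1% of the rest of the large arms. Region density was 9.44 and 9.07 per Mb in the heterochromatic and pericentric sequence, against 42.8 and 42.6 per Mb in the rest of the arms. On chromosome 4 the covered share was 13.7% (replicate 1) and 12.6% (replicate 2), with 42.2 and 40.7 regions per Mb, close to the density of the rest of the arms. Its difference from the rest was -0.34 percentage points in replicate 1 and -3.58 in replicate 2, a mean of -1.96 ± 2.29 (SD, n = 2), within the spread between replicates. The last 2 Mb of 2L were covered to 8.40% ± 0.74, those of X to 6.43% ± 0.40 and those of 3L to 3.92% ± 0.10 (SD, n = 2). Among the Het sequences, XHet reached 6.00% ± 0.28, YHet 3.76% ± 0.03, 2LHet 2.86% ± 0.004 and 3LHet 1.68% ± 0.16 (SD, n = 2). The longer 2RHet and 3RHet were covered to 1.01% ± 0.02 and 0.87% ± 0.03, and U to 0.56% ± 0.06 (SD, n = 2). Coverage was below that of the rest of the arms in both replicates for all 11 sequences, and for 10 of them, chromosome 4 being the exception, the gap exceeded 6 percentage points in each replicate. The part of each sequence in which reads can be placed uniquely was not measured.

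**Figure D1:**
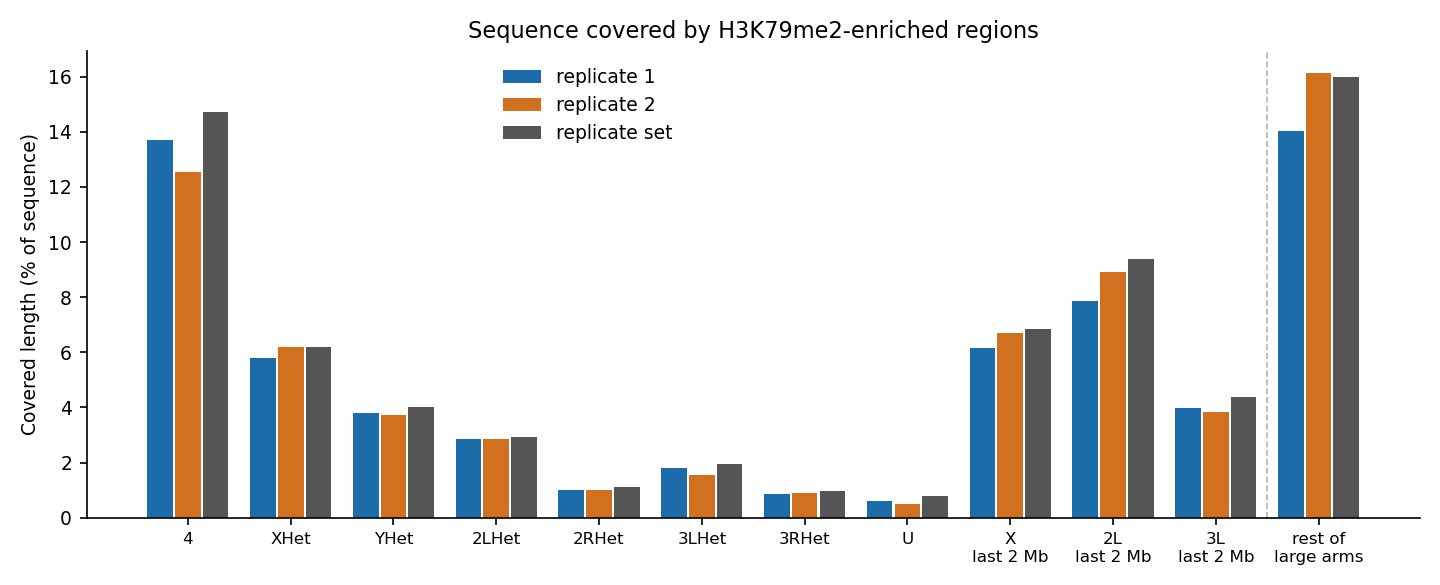
Percent of each sequence covered by enriched regions (y axis) for the 11 heterochromatic and pericentric sequences and, right of the dashed line, the rest of the large arms; bars are single lists (replicate 1, replicate 2, replicate set), with no error bars. Chromosome 4 stands near the rest of the arms, the 3 arm ends lie between 3.85% and 9.37%, and U is lowest.

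On chromosome 4 the regions ran nearly the whole sequence. In the replicate lists the first began at 61939 and the last ended at 1313716, a span of 92.6% of the sequence, in release 5 coordinates. The longest stretch without a region in either replicate ran from 382643 to 462670, 5.92% of the chromosome. Neighbouring regions were a median 11443.5 bp apart in replicate 1 and 12330 bp in replicate 2, against 7302 and 6915 bp in the rest of the arms. Distances under 5 kb made up 28.6% and 29.6% on chromosome 4, against 40.8% and 41.9% elsewhere on the arms. Chromosome 4 thus had about the density of regions of the arms and a lower share of close neighbours, in both replicates.

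The widest domain of chromosome 4 lay from 1045380 to 1055194 (9815 bp) and scored 2.89 in replicate 1, 2.06 in replicate 2 and 2.53 in the replicate set. The score is the authors' own value per region, in no stated unit, and is used here only for order, for differences and for limits. A 7785 bp domain from 678438 to 686222 scored 3.11 in replicate 1 and was split into 2 regions in replicate 2, the one with the larger overlap scoring 2.11. The domains from 462660 to 468816 and from 1232270 to 1237760 were likewise single regions in replicate 1 and 2 regions in replicate 2. A 6743 bp domain from 1141942 to 1148684 scored 2.66 in replicate 1 and 1.48 in replicate 2. Among the highest scores, the domain from 589642 to 594504 had 3.32 in replicate 1 and 1.78 in replicate 2, and the one from 630394 to 633484 had 3.16 and 2.04. The domain from 327782 to 330728 had 3.01 in replicate 1 and 2.15 in replicate 2. All 8 of these named domains scored higher in replicate 1. The top score of the replicate set on chromosome 4, 3.28, belonged to a region of 1001 bp from 1337104 to 1338104 that neither replicate list held. At 1001 bp it had the smallest width in that list.

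Near the far end of chromosome 4, from 1280794 to 1300384, 5 low-scoring regions of the replicate set stood within 19.6 kb, with scores from 0.16 to 0.98. Among them, those from 1280794 (0.73) and from 1282080 (0.16) touched no region of either replicate list. The 4 paired regions nearest this end had scores of 0.75 to 0.92 in replicate 1 (median 0.84) and of 0.71 to 1.83 in replicate 2 (median 0.95). The 36 before them had medians of 2.63 in replicate 1 and 1.47 in replicate 2. The last of the 4, at 1.83 in replicate 2, lay above the chromosome 4 median of that list.

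**Figure D2:**
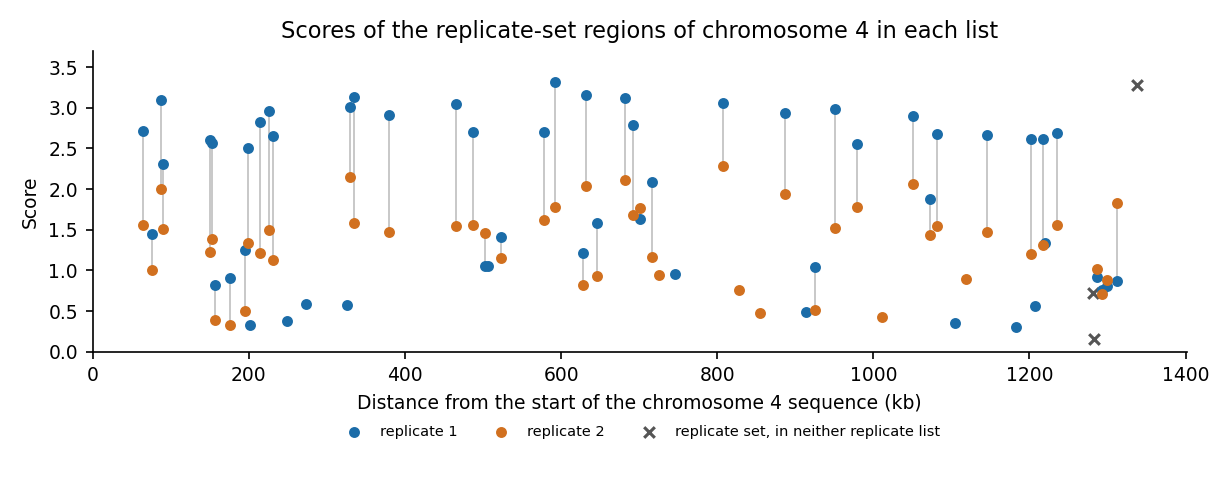
Score (y axis) of each replicate-set region of chromosome 4 in replicate 1 and in replicate 2 (score of the region with the largest overlap), by distance from the start of the sequence in kb (x axis); grey lines join values of the same region and crosses are regions found in neither replicate list, at their replicate-set score. Replicate 1 lies above replicate 2 over most of the chromosome, whereas in the 4 paired regions nearest the far end the differences run from -0.97 to 0.04.

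The sex-linked Het sequences held few regions, all of which both replicates covered. XHet had 4, inside 36.5 kb of its 204.1 kb. They scored 0.39, 3.00, 2.51 and 2.68 in replicate 1 from left to right, and 0.49, 2.58, 2.18 and 2.50 in replicate 2. The widest lay from 73614 to 78314 (4321 bp in replicate 1, 4870 bp in replicate 2), and the highest-scoring, in all 3 lists, from 59698 to 63228. The first region, from 50068 to 51942, was low in both lists. The 117.6 kb from 86501 to the end of XHet had no region.

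YHet had 6 regions, all within 44.6 kb (12.9% of the sequence) near its end, and the 300.4 kb before them had none in either replicate. Y-linked genes of the fly serve mainly in the male germ line, and the regions here are not assigned to genes. The highest score was that of the region from 304450 to 307164, with 2.22 in replicate 1 and 2.36 in replicate 2. The regions from 300374 to 302842 and from 312548 to 314794 scored 1.86 and 1.91 in replicate 1 and 1.67 and 1.29 in replicate 2. Those from 319822 to 322046 and from 327088 to 329354 scored 1.77 and 2.12 in replicate 1 and 1.32 and 1.21 in replicate 2. The last, from 343022 to 345050, was lowest in replicate 1 (1.02) but not in replicate 2 (1.52). YHet regions were narrow, with medians of 2234 and 2141 bp in replicates 1 and 2, against 2842 and 3168 bp in the rest of the arms. A score of at least 2 was reached by 2 of the 6 in replicate 1 and 1 of the 6 in replicate 2.

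The autosomal Het sequences carried isolated domains with long empty stretches between them. 2LHet had 2, from 30374 to 36628 and from 167072 to 171650, which scored 2.64 and 2.81 in replicate 1. In replicate 2 the first was split into 2 regions, the larger scoring 1.76, and the second scored 1.69. 3RHet had 9 regions, of which 6 lay between 1704384 and 1936644. Its highest in the replicate set was from 1806464 to 1809440, with 2.97 in replicate 1 and 1.64 in replicate 2. Its widest, from 1821968 to 1826152, scored 2.75 in replicate 1 and 1.00 in replicate 2. The regions from 1704384, 1766530 and 1897320 scored 2.13, 2.67 and 2.20 in replicate 1, against 1.01, 1.02 and 0.99 in replicate 2. Of the 9, 4 were low in the replicate set, from 0.45 to 0.88. One of these, from 640586 to 642602, scored 0.81 in replicate 1 and 1.01 in replicate 2, and another, from 2099096 to 2100566, was found in replicate 2 only. Between 642652 and 1704390, 1062 kb of 3RHet had no region.

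2RHet had 13 regions on 3289 kb. The highest in the replicate set lay from 469672 to 472686 and scored 3.29 in replicate 1 and 1.55 in replicate 2. The region from 2900872 to 2904302 stood apart with scores of 2.87 in replicate 1 and 2.51 in replicate 2. The region from 389380 to 393098 had 3.06 in replicate 1 and 1.54 in replicate 2. Empty stretches of 1152 kb (from 1622520) and 857 kb (from 477001) made up 35.0% and 26.1% of 2RHet. 3LHet had 18 regions, and the one scoring highest in the replicate set, from 2396858 to 2400402, scored 3.25 in replicate 1 and 2.18 in replicate 2. The neighbouring regions from 701080 to 703750 and from 708114 to 710822 scored 2.71 and 2.68 in replicate 1 and 2.38 and 2.38 in replicate 2. By contrast, the region from 2242318 to 2245616 had 3.41 in replicate 1 and 1.41 in replicate 2, and the widest, from 456872 to 461568, had 2.31 and 1.08. A group of 3 regions spanned 15.9 kb from 592288 to 608188 with replicate-set scores of 2.19 to 2.31.

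U had 28 regions in replicate 1, 23 in replicate 2 and 38 in the replicate set on 10.0 Mb. Its density of 2.79 and 2.29 regions per Mb was the lowest of the 11 sequences in each replicate list, but in the replicate set U had 3.78 per Mb and 3RHet 3.57. Its highest-scoring region in the replicate set lay from 7542004 to 7544888, with 3.56 in replicate 1 and 3.27 in replicate 2. A second, from 6383828 to 6386638, had the top score of replicate 1 in all this sequence (3.83) and 2.57 in replicate 2. The domain from 6013778 to 6016160 had 3.02 and 2.78, and the widest, of 4095 bp from 3441596 to 3445690, had 3.17 in replicate 1 and 1.46 in replicate 2. Regions were narrow, with a median of 2184 bp in replicate 1 and 2202 bp in replicate 2. Only 10 of the 38 lay below 5 Mb. U is an artificial sequence of joined scaffolds, so positions along it do not give a place in the genome.

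Coverage was low nearest the centromere on 3L and 2L, and uneven on X. On 3L, the 500 kb steps from the end inward were covered to 1.11% ± 0.23, 2.48% ± 0.68, 4.13% ± 0.06 and 7.97% ± 0.46 (SD, n = 2). The steps of 2L were covered to 3.80% ± 0.32, 8.63% ± 0.72, 7.20% ± 0.76 and 14.0% ± 1.15, the last within the range of the next 2 Mb of the arm, 12.3% to 19.9%. The steps of X were covered to 4.48% ± 0.10, 7.51% ± 0.59, 10.5% ± 0.53 and 3.21% ± 0.37, so that the step farthest from the centromere was the lowest. On the arms outside the choice, the first 500 kb of 2R were covered to 4.39% ± 0.17, and those of 3R to 21.4% ± 1.94.

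Regions at the end of X came in groups, as did some at the end of 2L, where 6 spanned 26.7 kb from 22120842 to 22147492. A run of 7 regions spanned 40.2 kb from 21207440 to 21247604 with replicate-set scores of 1.33 to 2.89, and a run of 5 spanned 27.6 kb from 21474514 to 21502080 with scores of 2.18 to 2.60. Distances under 5 kb made up 46.3% in replicate 1 and 52.6% in replicate 2 at the end of X, against 40.8% and 41.9% in the rest of the arms, and 17.9% and 23.1% at the end of 3L. They made up 29.8% and 35.4% at the end of 2L, and 46.5% and 47.0% in the first 2 Mb of 3R, outside the choice. The region of the end of X scoring highest in the replicate set, from 21855348 to 21860352, had 3.69 in replicate 1 and 2.56 in replicate 2. The widest, from 20921070 to 20927840, had 2.91 and 2.86. A region only 5.81 kb from the end of the assembled X, from 22413396 to 22417018, scored 3.14 in replicate 1 and 2.79 in replicate 2. The region just inside the limit of X, from 20565118, scored 0.55 in the replicate set, and the one just outside, from 20393888, scored 2.81.

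The widest region of the end of 2L, 9539 bp from 21161394 to 21170932, scored 2.56 in replicate 1 and 2.53 in replicate 2. Nearer the centromere, neighbouring regions from 22238924 and 22245808 scored 3.17 and 3.27 in replicate 1 and 2.15 and 1.89 in replicate 2. The top replicate-set score on this end, 3.28, belonged to a 1001 bp region from 21424214 to 21425214 that neither replicate list held. Just inside the limit of 2L a region from 21049664 scored 1.76, and just outside it one from 20924680 scored 1.03. On 3L, the regions from 22732708 to 22736698 and from 22869626 to 22873932 scored 3.25 and 3.11 in replicate 1 and 2.87 and 2.88 in replicate 2, and they lay 1807 and 1670 kb from the arm end. At 1209 kb from that end, a domain of 5233 bp from 23329122 scored 2.99 as 1 region of replicate 1 and was split into 2 regions in replicate 2, the larger scoring 1.23. Just inside the limit of 3L a region from 22659288 scored 0.90, and just outside it one from 22459456 scored 0.36.

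**Figure D3:**
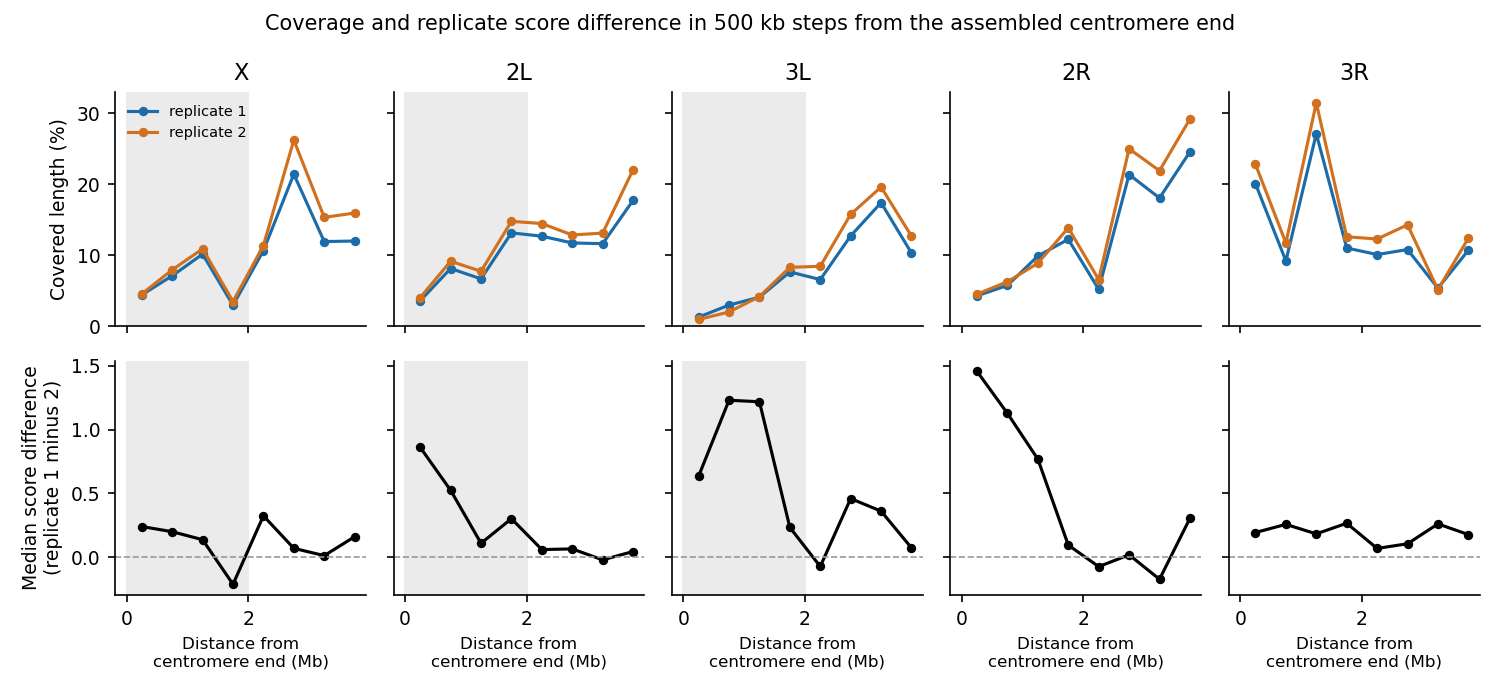
Upper row: percent of each 500 kb step covered in replicate 1 and replicate 2; lower row: median score in replicate 1 minus replicate 2 of paired regions; x axes give distance from the assembled centromere end in Mb, and grey marks the last 2 Mb of X, 2L and 3L. Steps near the end held 2 to 16 pairs on 2L and 3L, the score difference was highest nearest the end on 2L and 2R and from 500 to 1500 kb on 3L, and it stayed between -0.21 and 0.32 on X and 0.07 and 0.27 on 3R.

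A smaller share of members than of other regions was found in both replicates. Both replicates covered at least 50% of the length of 209 of the 281 members (74.4%, 95% Wilson interval 69.0% to 79.1%), against 4440 of 5033 in the rest of the arms (88.2%, 87.3% to 89.1%). Over the whole replicate set the share was 87.5%. Chromosome 4 reached 70.3% (58.2% to 80.1%), the Het sequences and U 68.9% (58.7% to 77.5%), and the arm ends 80.3% (72.6% to 86.3%). U alone reached 18 of 38 (47.4%), whereas XHet, YHet and 2LHet reached 12 of 12 together. The other Het sequences lay well above U, with 11 of 13 on 2RHet (84.6%), 13 of 18 on 3LHet (72.2%) and 8 of 9 on 3RHet (88.9%). Among the arm ends, X reached 85.7%, 2L 78.6% and 3L 75.9%. Wilson intervals cover counting error only. Members that were not shared had a median score of 0.47, against 2.13 for shared members. In the rest of the arms these medians were 0.33 and 2.14. The highest score of a member that was not shared was 3.28. Narrow regions were more frequent among members. In the replicate set, 17 members (6.05%) were narrower than 1301 bp, the smallest width in either replicate list, against 123 regions (2.44%) of the rest, and none of these was shared. Leaving them out, 79.2% of members and 90.4% of the rest were shared.

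The side on which members were missing differed from the rest. Replicate 1 alone covered 36 members (all regions of the replicate set: 4.55%) and replicate 2 alone covered 21 (all regions: 6.12%), while 206 and 304 regions of the rest were covered by replicate 1 alone and replicate 2 alone. The other 15 members touched no region of either replicate list. On chromosome 4 the numbers were 11 and 5, on U 10 and 4, and at the end of 3L 6 and 1. At the end of 2L they were 1 and 5, in the direction seen on the rest of the arms. No test of these counts was made, since regions of a library are not replicates.

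Scores on chromosome 4 and the autosomal Het sequences were much higher in replicate 1 than in replicate 2, by far more than on the arms. On chromosome 4, 40 regions were paired one to one between the lists. Their median score was 2.61 in replicate 1 and 1.45 in replicate 2, and 35 of 40 were higher in replicate 1. The median of the pairwise differences was 0.96 (quartiles 0.44 and 1.18), against 0.20 (-0.12 and 0.52) over 4085 pairs of the rest. Differences over 1 were found in 19 of 40 pairs (47.5%), against 193 of the 4085 (4.72%) and 5.86% of all pairs. On 3LHet the median difference was 1.24 over 13 pairs, on 3RHet 1.17 over 8, on 2RHet 1.09 over 11, and the single pair of 2LHet differed by 1.12. All 11 pairs of 2RHet and all 13 of 3LHet were higher in replicate 1.

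The sex-linked sequences had smaller median differences. The median difference was 0.26 over 4 pairs on XHet, 0.32 over 6 on YHet and 0.15 over 38 at the end of X. XHet and YHet have few pairs, with differences from -0.10 to 0.42 and from -0.49 to 0.92, so their medians are uncertain. Taken as 2 sets, a division made after the values were seen, 40 of 73 pairs (54.8%) of chromosome 4 and the autosomal Het sequences differed by over 1, against 2 of 48 (4.17%) of XHet, YHet and the end of X. U was mixed, with a median of 0.23 over 18 pairs and differences from -0.71 to 1.91. Its 3 pairs below 5 Mb differed by a median of 1.71 and its 15 pairs above by 0.12. This contrast was not tested.

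**Figure D4:**
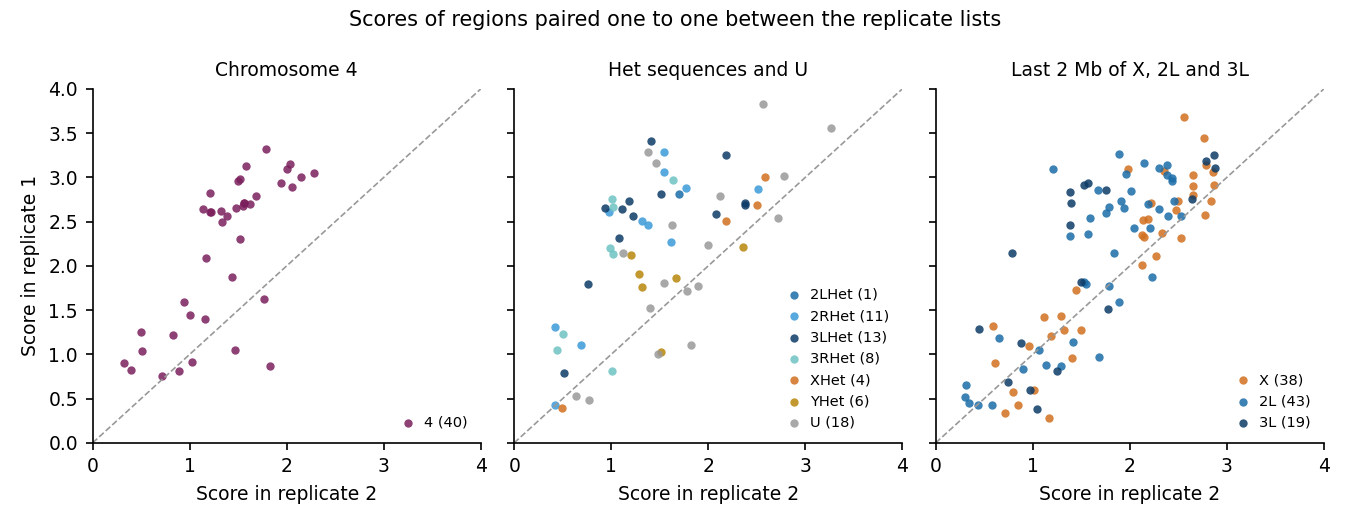
Score in replicate 1 (y axis) against score in replicate 2 (x axis) for regions paired one to one, coloured by sequence with the number of pairs in brackets; the dashed line marks equal scores. Above the line lie 35 of 40 points of chromosome 4, 7 of 8 of 3RHet and all of 2LHet, 2RHet and 3LHet. Score differences, replicate 1 minus replicate 2, run from -0.97 to 1.61 on chromosome 4 (median 0.96). They run from -0.10 to 0.42 on XHet (median 0.26) and from -0.49 to 0.92 on YHet (median 0.32). At the end of X they run from -0.88 to 1.13 (median 0.15).

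Along the arm ends the gap was large in some steps and small in others. Within 500 kb of the end of 2L the median score was 2.63 in replicate 1 and 1.57 in replicate 2 (6 pairs, median difference 0.86). From 500 to 1000 kb the difference was 0.52 (12 pairs), from 1000 to 1500 kb 0.11 (9 pairs) and from 1500 to 2000 kb 0.30 (16 pairs). On 3L it was 0.63 within 500 kb of the end (2 pairs, 1 of them over 0.5), 1.23 from 500 to 1000 kb (4 pairs), 1.22 from 1000 to 1500 kb (4 pairs) and 0.23 from 1500 to 2000 kb (9 pairs). On X, from the end inward, it was 0.24 (7 pairs), 0.20 (12), 0.14 (14) and -0.21 (5). The first 500 kb of 2R, outside the choice, had a median difference of 1.46 (7 pairs, all over 0.5), which was 1.13 in the next step (9 pairs), 0.77 in the third (16 pairs) and 0.09 from 1500 to 2000 kb (20 pairs). The first 500 kb of 3R had 0.19 (26 pairs). These steps hold few pairs, so no trend with distance is read from them.

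Across the arms such gaps were rare. In 235 windows of 500 kb on the large arms and chromosome 4, each with at least 5 pairs, the median of the window medians was 0.20. A median over 0.6 was found in 7 windows: all 3 of chromosome 4, the first 3 of 2R and the window of 2L from 22500001 to 23000000. The limit of 0.6 was set after the values were seen. The lowest of the 7, the last of chromosome 4, had 0.63, and the next window below, on X from 7000001 to 7500000, had 0.52. On 3L the windows after 23000000 held under 5 pairs each and did not enter. The gap was also set out by score level. Among pairs with a mean score of 1.5 to 2.5, a limit set after the values were seen, the median difference was 1.16 on chromosome 4 (22 pairs), against 0.22 in the rest (1413 pairs). With only the higher-scoring 50% of each list, the excess over the rest was 0.49 on chromosome 4, but on the Het sequences and U it turned to -0.086, against 0.45 with all pairs. Pairs high in replicate 1 and below the median of replicate 2 are removed by this choice. It therefore cannot decide whether the gap holds at high scores.

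**Figure D5:**
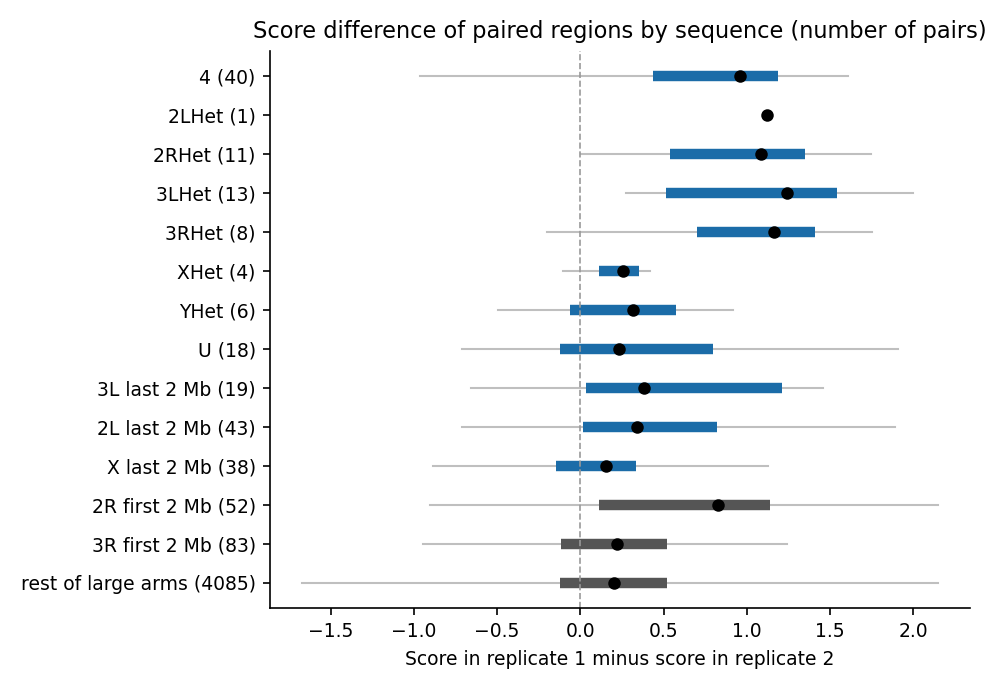
Score in replicate 1 minus score in replicate 2 (x axis) for paired regions of each sequence (number of pairs in brackets); dots are medians, thick bars run from the lower to the upper quartile and thin lines from the lowest to the highest pair. Medians of chromosome 4 and the 4 autosomal Het sequences lie between 0.96 and 1.24, and the first 2 Mb of 2R, drawn in grey with the rest of the arms, at 0.83.

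Scores stood differently against the arms in the 2 replicates. The median score on chromosome 4 was 2.31 in replicate 1 and 1.47 in replicate 2, against 2.19 and 1.89 in the rest of the arms. Chromosome 4 minus the rest was thus 0.12 in replicate 1 and -0.43 in replicate 2, and the mean difference of -0.15 ± 0.38 (SD, n = 2) did not exceed the spread between replicates. A score of at least 2 was reached by 52.6% of its regions in replicate 1 and 14.5% in replicate 2, against 55.2% and 45.1% of the rest. The Het sequences and U had medians of 2.21 and 1.39, and the arm ends 2.32 and 1.76. Their mean differences from the rest were -0.24 ± 0.37 and -0.002 ± 0.19 (SD, n = 2), again within the spread. XHet and the end of X were above the rest in each replicate, XHet by 0.41 and 0.45 and the end of X by 0.02 and 0.25. In YHet the median minus that of the rest was -0.31 and -0.47, in U -0.48 and -0.35, in 3RHet -0.02 and -0.89 and at the end of 3L -0.05 and -0.50. For the first 2 Mb of 2R, outside the choice, it was 0.20 in replicate 1 and -0.45 in replicate 2.

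Widths differed between the replicates too. Of the pairs of the rest, 13.9% were wider in replicate 1 than in replicate 2, and 15.2% of all pairs. On chromosome 4, 25 of 40 pairs (62.5%) were wider in replicate 1, with median widths of 2874 bp in replicate 1 and 2738 bp in replicate 2. On 2RHet this held for 7 of 11 pairs, on 3LHet for 8 of 13 and on 3RHet for 5 of 8, but not for the single pair of 2LHet. YHet, with a median score difference of 0.32, had 5 of 6 pairs wider in replicate 1, and XHet 1 of 4. As a share this was 60.6% on the autosomal Het sequences and 60.0% on XHet and YHet together. At the end of X it held for 4 of 38, at the end of 2L for 13 of 43 and at the end of 3L for 8 of 19. In the first 2 Mb of 2R, outside the choice, it held for 25 of 52 (48.1%). The replicates had different inputs, and whether the gap arose in the ChIP libraries, in the inputs or in the calling was not tested.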

How the data were processed

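The authors deposited 3 lists of enriched regions, 1 for each ChIP sample and 1 for the replicate set, with 1-based coordinates on FlyBase release 5, per the file headers. The submitters' processing notes name Bowtie 0.12.7. Not given in the sources used here: the region caller, its threshold and how the replicate set was made. Each region has a score in the score column the authors deposited, with no stated unit, used only for order, differences and limits. Depth is unknown, so no counting interval for enrichment is given. Regions of a list never overlapped. Regions were assigned to an arm end by their own end. A region counted as shared when each replicate list covered at least 50% of it. Replicate regions were paired where each overlapped the other and nothing else. Members and rules were chosen with earlier results of these data known. In sequences with up to 10 regions every region could be named, otherwise the 5 widest and 5 highest-scoring, those next to each limit and the longest empty stretches. Runs of close regions were named after their values were seen. The gene table at hand is of release 6, so no gene was named, no sequence printed and no coordinate converted. Code (Python 3.11.15, numpy 2.4.6, pandas 2.3.3, scipy 1.17.1, matplotlib 3.10.9) was tested on simulated lists. The ChIP samples were the 2 replicates of every mean ± SD, and input samples were not analysed here on their own.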

Additional observations from a re-analysis of the deposited data

How the results depend on the processing

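No paired analysis was possible because ChIP and input samples share replicate numbers but the inputs have no region list. Of 83 alternative values for 12 results, 57 stayed within 1 SD of the replicates or the 95% binomial interval of the share or median. Where the error was the SD of 2 replicates, leaving 1 out stays within 1 SD by construction, so those values are no check. With all values that leave out a replicate set aside, 44 stayed within these limits and 20 moved beyond them. The remaining 1, counted as reversed, was the excess on the Het sequences and U given below. Values near 0 also changed sign without being counted as reversed. At the arm ends the excess did so, as given below. The median score of the arm ends minus that of the rest went from -0.002 to as much as 0.040. With the higher-scoring 50% of each list, covered shares fell by construction to 5.54% on chromosome 4, 0.43% on the Het sequences and U and 3.57% at the arm ends. Shared members were then 23.3%, 40.5% and 69.8%. The excess of the replicate score difference over the rest became -0.086 on the Het sequences and U, against 0.45, and -0.044 at the arm ends, against 0.06. This choice drops every pair below the median of either list, among them pairs high in replicate 1 and low in replicate 2. On chromosome 4 the excess was 0.75 and stayed within 0.49 and 0.94 over the alternatives in score units. The list for the replicate set gave covered shares of 14.7%, 1.18% and 6.87%. Arm ends of 1 Mb and 3 Mb in place of 2 Mb were covered to 4.67% and 8.74%, and 1 Mb gave a score excess of 0.18. Requiring 80% of the length shared 57.8% on chromosome 4 and 70.9% at the arm ends. Rank percentiles in place of scores gave an excess of 26.2, 13.6 and 0.54 percentage points. These are counted among the values that moved, but the limits are in score units, so they are no check. Pairs with a mean score of 1.5 to 2.5, chosen after seeing the data, gave 0.895 on the Het sequences and U and 0.16 at the arm ends. Leaving out replicate 1 or 2 gave the share covered by the remaining list alone, which by construction cannot fall below the share covered by both. It was 78.1% and 87.5% on chromosome 4, 77.8% and 84.4% on the Het sequences and U, and 86.6% and 89.0% at the arm ends. The median score minus that of the rest was -0.43, -0.50 and -0.13 without replicate 1 and 0.12, 0.02 and 0.13 without replicate 2, so its sign depends on 1 library. Covered shares ranged from 12.6% to 13.7%, 0.945% to 1.02% and 6.01% to 6.49%. The causes of these changes, other than those that follow from the choice itself, were not tested. Unknown depth limits every count of regions.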

Other observations

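The region of 1001 bp on chromosome 4 from 1337104 and the one on 2L from 21424214, both absent from the replicate lists, have the same score to the last digit written. It lies exactly 3 above the most frequent score of that list, 0.28, which 10 regions have. In replicate 2, 15 regions share a score of 0.42, and 5 of the other 7 scores held by at least 3 regions differ from it by the log2 of a ratio of whole numbers up to 30, within 1e-06. In the replicate set this holds for 4 of 6 such scores, and in replicate 1 for 0 of 9. The unit of the score is not stated.

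The 4 paired regions nearest the far end of chromosome 4 had a median score difference between replicates 1 and 2 of -0.09, against 1.08 in the 36 pairs before them. Of the 25 pairs of chromosome 4 with a score of at least 2 in replicate 1, all differed by over 0.5, from 0.77 to 1.61, against 948 of 2289 such pairs of the rest. Those pairs were picked by the replicate 1 score.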
